A study of Mus musculus with 6 samples.

Results

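The ADAMTS proteases, the ADAMTS-like proteins, the matrix metalloproteinases (MMPs) and their tissue inhibitors (TIMPs) were examined in cells sorted from the subgranular zone (SGZ) of the mouse dentate gyrus. Genes were taken by symbol from the deposited table of 55471 genes, and 51 symbols matched. Of these, 37 had a mean normalized count of at least 10 over the 6 libraries and form the set described here, among 18664 genes at that level. They were 17 of 19 ADAMTS genes, 5 of 5 ADAMTS-like genes, 11 of 23 MMP genes and 4 of 4 TIMP genes. Among the matched symbols the mean over the 6 libraries, and not the difference between the groups, set the choice. The families themselves were chosen with earlier results of these data known. Adamts19 lay just inside the minimum with a mean normalized count of 14.5, and Adamts14 just outside it with 9.64.

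ADAMTS proteases and MMPs are zinc-dependent enzymes that cut proteins of the extracellular matrix. TIMPs bind the active site of MMPs and block them, and TIMP3 also blocks ADAMTS4 and ADAMTS5. ADAMTS-like proteins share the thrombospondin repeats of the ADAMTS family but have no protease domain, and several bind fibrillin microfibrils. In brain, the matrix around cells is rich in hyaluronan and chondroitin sulfate proteoglycans of the aggrecan family, which are substrates of several ADAMTS proteases, and around blood vessels it forms a basement membrane.

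RNA was sequenced from 3 replicates of NTG;Nestin-YFP and 3 of 3xTg;Nestin-YFP mice, to compare neural stem and progenitor cells of both genotypes before pathology. The 3xTg line models Alzheimer disease with mutant human APP and MAPT transgenes, driven by a Thy1 promoter, and NTG mice are non-transgenic controls that were kept as a colony of their own, so that genotype and colony cannot be told apart. Both groups had the strain label B6129SF2/J and the age postnatal day 35, carried the Nestin-CreERT2 and ROSA26-EYFP alleles, and received tamoxifen, after which Nestin-expressing cells and their later progeny are YFP-positive. YFP-positive, propidium iodide-negative cells were collected 10 days after tamoxifen. How many animals made up a replicate is not given in the sources used here, so that p-values measure the spread between these samples.

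Depth was 32731794 to 42576455 assigned reads per library in NTG and 53063475 to 81800375 in 3xTg, so that each 3xTg library was deeper than each NTG library. On the first principal component, with 48.5% of the variance, NTG scores were -50.96 to -27.66, with 3xTg replicate 1 at 15.03 and the other 3xTg libraries at 42.86 and 51.60. Markers of neural stem cells were present in the sort, with all 13 detected and a summed normalized count of 451866 to 503984 in NTG and 457058 to 544741 in 3xTg. Markers of other cells were present too. For 10 astrocyte markers the summed count was 1222200 to 1486310 in NTG and 1243700 to 1513260 in 3xTg. Gfap and Slc1a3 are on both the astrocyte and the neural stem cell list. The sums therefore do not tell stem cells and astrocytes apart. The summed count of 20 endothelial markers was 36473 to 42725 in NTG and 23412 to 32576 in 3xTg, and that of 14 oligodendrocyte lineage markers was 340633 in NTG replicate 3 against 656916 to 740757 in the other libraries. In bulk samples, fewer cells of a type and less RNA per cell cannot be told apart.

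A gene was called higher or lower at an adjusted p under 0.05 by limma where the log2 ratio of 3xTg to NTG, here the log2 fold change, was also beyond 0.5 in either direction. Among the 37 genes, 4 were lower in 3xTg: Adamtsl4, Adamts1, Adamtsl1 and Adamtsl2. The share called lower was 10.8% here and 1.67% of all genes tested. None was higher in 3xTg by limma, edgeR or DESeq2. In that direction 0 of the 37 had an unadjusted limma p under 0.05, beside 2253 of all 18664 genes tested. The share of all genes called higher was 1.13% by limma, 1.22% by edgeR and 3.24% by DESeq2. With edgeR on the recovered reads the same 4 genes were lower, where 1.62% of all genes were, and with DESeq2 Mmp25 was lower as well, where 3.93% of all genes were. Mmp25 reached the minimum of 10 only through NTG, with mean normalized counts of 27.9 in NTG and 7.36 in 3xTg. Its place in the set thus depended on the group where it is high, and its call adds no support. The median log2 fold change of the 37 genes was -0.15, with 26 below 0 and 11 above, beside a median of 0.01 over all genes tested. Removing the trend of fold changes with the GC content of transcripts moved these medians to -0.01 and 0.04, and the transcripts of the 37 genes had a median GC content of 54.0% against 49.8%. The 4 genes belong to a group of matrix genes in which the study displayed genes significant in these same samples, so that their calls are not independent evidence.

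**Figure D1:**
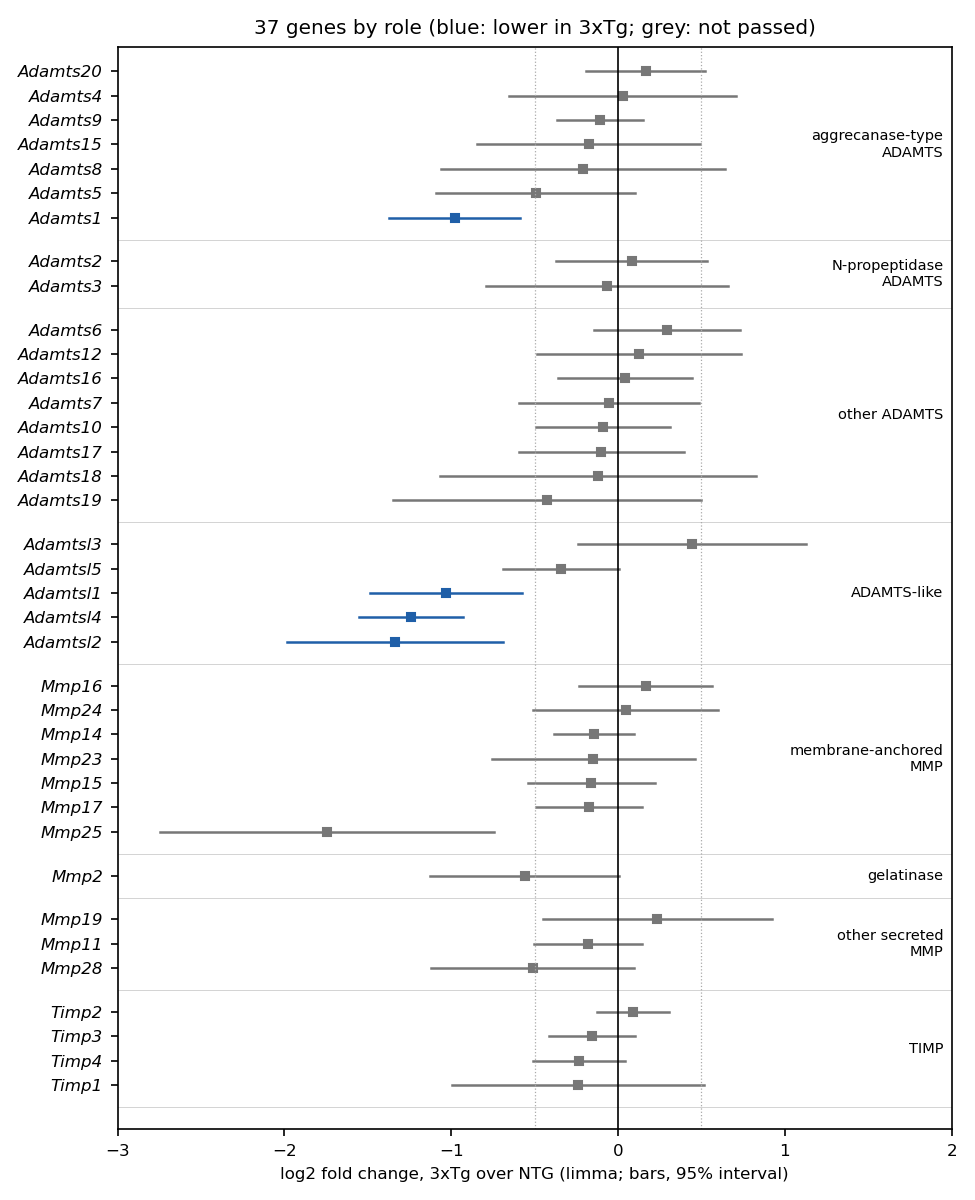
Log2 fold change, 3xTg over NTG, of the 37 genes, grouped by role. Squares are limma estimates and bars 95% intervals, dotted lines mark 0.5 in either direction, and the 4 genes called lower are blue, 3 of them ADAMTS-like.

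The 4 calls were not spread evenly over the families. Among the 5 ADAMTS-like genes 3 were lower, with a median log2 fold change of -1.03. Of the 17 ADAMTS proteases 1 was lower and the median was -0.09. No MMP of 11 and no TIMP of 4 passed the test, and their medians were -0.16 and -0.19. With the GC trend removed, the medians were -0.95 for ADAMTS-like, 0.04 for ADAMTS, 0.03 for MMP and -0.18 for TIMP genes. Libraries of 3 against 3 did not overlap, with 3xTg below NTG, for 6 of the 37 genes (16.2%), beside 12.6% of all genes tested, and for 0 genes with 3xTg above NTG, beside 15.1%. The 6 were the 4 lower genes, Adamts9, and Mmp25, which is in the set only through its NTG level. With 3 libraries a group, the lowest two-sided p of an exact permutation test is 0.1, so that calls rest on limma's pooled estimate of the spread.

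Adamtsl4 encodes an ADAMTS-like protein that binds fibrillin and promotes the assembly of microfibrils. The gene lies at chr3:95676201-95687917 on the minus strand (GRCm38). Its normalized counts were 1807, 2069 and 1556 in the NTG libraries and 691, 750 and 847 in the 3xTg libraries. All 3xTg libraries lay below all NTG libraries, and the lowest NTG value exceeded the highest 3xTg value by far more than the spread within 3xTg. The mean fell from 1810 ± 256 to 763 ± 78.8 (SD, n = 3 each), which is 42.1% of the NTG level. Its log2 fold change was -1.24 (SE 0.14, limma adjusted p = 0.0015), and it was called lower in each of 20 alternative settings, with log2 fold changes from -1.35 to -0.80. Its transcripts had a GC content of 60.1%. With the GC trend removed the log2 fold change was -0.95 (limma adjusted p = 0.021). Leaving out 3xTg replicate 1 as well gave -0.80 (limma adjusted p = 0.0236). Over the 20 alternatives the adjusted p ranged from 2.04e-13 (DESeq2) to 0.0236.

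Adamts1 encodes a secreted protease that cuts aggrecan and versican and is also known as an inhibitor of blood vessel growth. It lies at chr16:85793827-85803113 on the minus strand. The NTG libraries held normalized counts of 7505, 7386 and 6948, and the 3xTg libraries 2677, 4614 and 4075. The NTG values were close to each other, 3xTg replicate 1 was the lowest library, and the groups did not overlap. The mean fell from 7280 ± 293 to 3789 ± 1000.1 (SD, n = 3 each), with a log2 fold change of -0.98 (SE 0.18, limma adjusted p = 0.021). The limma adjusted p was 0.0582 without 3xTg replicate 3, 0.0857 without NTG replicate 1 and 0.0558 without NTG replicate 2, and over 20 alternatives it ranged from 2.92e-05 (DESeq2) to 0.0857 with log2 fold changes from -1.14 to -0.71.

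Adamtsl1 encodes punctin, a secreted ADAMTS-like glycoprotein. The gene spans chr4:85514172-86428385 on the plus strand. Normalized counts were 452, 564 and 385 in NTG and 277, 186 and 221 in 3xTg, without overlap, and 3xTg replicate 2 was lowest. The mean was 467 ± 90.5 in NTG and 228 ± 45.8 in 3xTg (SD, n = 3 each), a log2 fold change of -1.03 (SE 0.20, limma adjusted p = 0.033). The call was lost without 3xTg replicate 2, 3xTg replicate 3, NTG replicate 1 or NTG replicate 2, with limma adjusted p of 0.141, 0.129, 0.107 and 0.0946, and the log2 fold change then lay between -1.05 and -0.89. Over 20 alternatives its adjusted p ranged from 7.32e-05 (DESeq2) to 0.141.

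Adamtsl2 encodes a fibrillin-binding protein that also binds the latent TGF-beta binding protein LTBP1. It lies at chr2:27079379-27108981 on the plus strand. The gene was expressed at a low level, with normalized counts of 99.5, 88.4 and 102 in NTG and 49.0, 26.4 and 40.9 in 3xTg. The groups did not overlap, and 3xTg replicate 2 was again lowest. The mean was 96.6 ± 7.28 in NTG and 38.8 ± 11.4 in 3xTg (SD, n = 3 each), with a log2 fold change of -1.34 (SE 0.29, limma adjusted p = 0.043). This was the least firm of the 4 calls, since it passed in 11 of 20 alternatives, with log2 fold changes of -1.52 to -1.09 throughout. The limma adjusted p was 0.166 without 3xTg replicate 2, 0.139 without 3xTg replicate 3, 0.134 without NTG replicate 1, 0.0894 without NTG replicate 2 and 0.0874 without NTG replicate 3, and 0.0526 with the GC trend removed, over a range of 0.00139 to 0.166 in all.

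**Figure D2:**
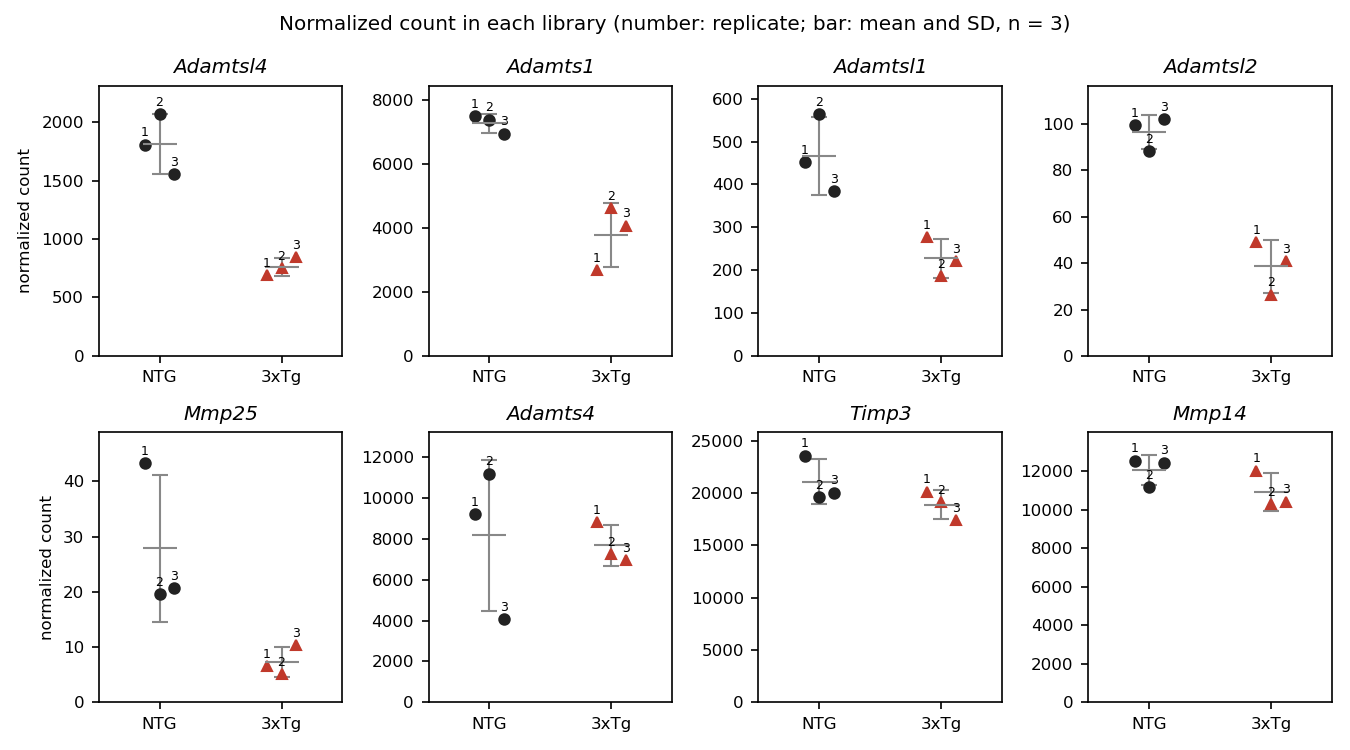
Normalized count in each library for the 4 genes called lower (upper row) and for Mmp25, Adamts4, Timp3 and Mmp14 (lower row), with numbered points for replicates and grey marks for the mean and SD of 3 libraries. The groups do not overlap in the upper row and for Mmp25, whose values are below 50, while NTG replicate 3 stands apart for Adamts4 at 4076.

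The remaining ADAMTS-like genes, Adamtsl5 and Adamtsl3, did not pass the test. Adamtsl5, whose protein binds fibrillin, had normalized counts of 1353 to 2048 in NTG and 1197 to 1449 in 3xTg, which overlapped (log2 fold change -0.34, 95% interval -0.69 to 0.01). Adamtsl3 had a log2 fold change of 0.44 (95% interval -0.24 to 1.13), the highest point estimate of the 37 genes. Its normalized counts were 160, 151 and 71.0 in NTG and 144 to 174 in 3xTg. Without NTG replicate 3 its log2 fold change was 0.07.

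To show what the genes called lower have in their start regions, 300 bases of RefSeq sequence (GRCm38.p6) are given for 3 of them, from 250 bases before to 50 after the start, 5′ to 3′ on the strand of the gene. A window was matched for 23 of the 37 genes, and Adamtsl1 was not among them. Capitals mark the letters of 3 motifs, searched on both strands, namely a promoter element that positions transcription, spelled TATAAA, the GC box of Sp-family factors, spelled GGGCGG, and the site of the Notch effector CSL, spelled TGGGAA. The windows are chr3:95687868-95688167 (minus strand) for Adamtsl4, chr16:85803064-85803363 (minus strand) for Adamts1 and chr2:27079129-27079428 (plus strand) for Adamtsl2.
Adamtsl4: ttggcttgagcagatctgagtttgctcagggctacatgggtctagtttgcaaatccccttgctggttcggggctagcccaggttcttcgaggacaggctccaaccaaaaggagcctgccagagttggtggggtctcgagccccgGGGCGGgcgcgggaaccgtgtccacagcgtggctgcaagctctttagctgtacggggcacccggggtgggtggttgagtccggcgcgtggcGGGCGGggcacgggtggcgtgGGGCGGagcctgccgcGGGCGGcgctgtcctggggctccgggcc
Adamts1: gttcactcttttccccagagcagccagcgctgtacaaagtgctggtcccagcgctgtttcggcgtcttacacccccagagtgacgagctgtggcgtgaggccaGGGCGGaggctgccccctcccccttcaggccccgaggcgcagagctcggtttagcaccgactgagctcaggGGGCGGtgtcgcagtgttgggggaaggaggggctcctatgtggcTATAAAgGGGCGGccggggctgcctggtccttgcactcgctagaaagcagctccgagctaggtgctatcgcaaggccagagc
Adamtsl2: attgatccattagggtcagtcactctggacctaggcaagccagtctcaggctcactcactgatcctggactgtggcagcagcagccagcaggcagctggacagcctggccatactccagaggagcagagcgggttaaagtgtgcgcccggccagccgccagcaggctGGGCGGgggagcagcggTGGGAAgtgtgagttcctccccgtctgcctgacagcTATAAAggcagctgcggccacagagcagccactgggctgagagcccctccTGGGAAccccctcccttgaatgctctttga
These 3 windows differ in their start regions. Adamtsl4 holds no TATAAA, but 4 GC boxes that begin at positions -106, -15, 7 and 23 from the start. Adamts1 holds TATAAA at -32, a GC box that begins at -25, and further GC boxes at -147 and -76. Adamtsl2 holds TATAAA at -30, a GC box at -83, and CSL letters at -66 and 21.

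Adamts1 and Adamtsl2 were the only 2 of the 23 matched genes with TATAAA (8.70%), beside 13.6% of 32851 RefSeq windows of that length. GC boxes were found in 20 of the 23 genes (87.0%) and in 35.7% of all windows, and the windows of the matched genes had a median GC content of 66.0% against 52.7%. The AP-1 letters TGANTCA, a site known from inducible MMP promoters, were found in 0 of the 23 genes and in 7.81% of all windows. The ETS letters AGGAAG were found in 6 genes (26.1%, against 35.4%), and CSL letters in 8 (34.8%, against 25.6%). A match of letters is a description and shows no binding.

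The 4 genes lie on different chromosomes. None of the 8 tested genes next to them passed the test. Nearest to a call among the neighbours were Ecm1 beside Adamtsl4, at -0.72 (SE 0.20, limma adjusted p = 0.0847), and Fam163b, 1399 bases from Adamtsl2, at -1.02 (SE 0.30, limma adjusted p = 0.0975). Adamts1 and the aggrecanase gene Adamts5 are 53060 bases apart on chromosome 16. Adamts5 was far less abundant than Adamts1, with a normalized count per kb of 7.80 ± 1.75 in NTG and 5.45 ± 0.74 in 3xTg, and had a log2 fold change of -0.49 (SE 0.27, limma adjusted p = 0.287).

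The other aggrecanase-type proteases did not pass. Adamts4, the aggrecanase that oligodendrocytes are known to express in mouse brain, had normalized counts of 9207, 11183 and 4076 in NTG and 8809, 7250 and 6956 in 3xTg. NTG replicate 3 was the lowest of all libraries, and the groups overlapped. Oligodendrocyte lineage markers were lowest in that same library, at -0.77 on the centred log2 scale against -0.01 to 0.48 in the other libraries, and their part in the Adamts4 values was not tested. The log2 fold change of Adamts4 was 0.03 (SE 0.30, limma adjusted p = 0.965), and -0.41 without NTG replicate 3.

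Adamts9, a protease of versican, had normalized counts of 805, 858 and 796 in NTG and 776, 764 and 739 in 3xTg. The 3xTg libraries all lay below the NTG libraries, but by little, with a log2 fold change of -0.11 (95% interval -0.37 to 0.15). Adamts20, also a versican protease, stood at 0.17, and the scarce Adamts8 and Adamts15 at -0.21 and -0.18. Their 95% intervals all spanned 0.

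Adamts2 and Adamts3, which remove the amino-terminal propeptide from fibrillar procollagens and of which Adamts3 also cuts Reelin, had log2 fold changes of 0.08 (95% interval -0.37 to 0.53) and -0.07 (95% interval -0.79 to 0.66). Among 8 further ADAMTS genes none was called, with a median of -0.07. They included Adamts10 and Adamts17, linked to fibrillin microfibrils, at -0.09 and -0.10, Adamts7 and Adamts12, which cut the cartilage protein COMP, at -0.05 and 0.13, Adamts16 at 0.04, Adamts18 at -0.12 and Adamts19 at -0.43. Adamts18 varied most within 3xTg, from 90.5 in replicate 1 to 329 in replicate 3.

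Adamts6, a protease with fibrillin among its substrates, was the only one of these with a call that turned on 1 library. Its normalized counts were 474, 478 and 433 in NTG and 410, 647 and 684 in 3xTg. In 3xTg replicate 1 it was below every NTG library, while in both other 3xTg libraries it was above them. The log2 fold change was 0.29 (SE 0.20, limma adjusted p = 0.385) with all libraries. Without 3xTg replicate 1 it was 0.53 (limma adjusted p = 0.0395), which is past the threshold, in a fit in which 5.14% of all genes were called higher. Over 20 alternatives its adjusted p ranged from 0.0379 to 0.746, and it was called in 1.

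Translation of the GENCODE M21 coding sequences showed how the proteins differ. The zinc-binding histidine motif of the active site, with any residue allowed in the position of its glycine, was found in 17 of 17 ADAMTS and 11 of 11 MMP genes, and in 0 of 5 ADAMTS-like and 0 of 4 TIMP genes. With glycine required, a form set out first, it was found in 11 of 17 ADAMTS genes and was missed in Adamts1, Adamts4, Adamts8, Adamts9, Adamts15 and Adamts20. The longest proteins had 485 to 1753 residues in the ADAMTS-like family, 845 to 1931 in ADAMTS, 391 to 662 in MMP and 205 to 224 in TIMP. Of the 4 genes called lower, thus, 1 encodes a protease and 3 encode proteins without the active-site motif.

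The membrane-anchored MMPs ranged from Mmp14, the most abundant MMP per kb, to Mmp25, the least abundant of the 11. Mmp14, whose protein cuts collagen at the cell surface and activates pro-MMP2 together with TIMP2, had normalized counts of 12544, 11155 and 12436 in NTG and 12019, 10278 and 10418 in 3xTg. The groups overlapped, and the log2 fold change was -0.15 (95% interval -0.39 to 0.10). With the GC trend removed its sign turned, to 0.07. The other transmembrane MMPs Mmp15, Mmp16 and Mmp24 stood at -0.16, 0.17 and 0.05, the lipid-anchored Mmp17 at -0.18, and Mmp23 at -0.15. With the GC trend removed, the signs of Mmp15, Mmp16, Mmp17 and Mmp23 turned as well, to 0.11, -0.01, 0.03 and 0.09. Mmp24 stayed above 0, at 0.27. Mmp24 spread from 471 to 1071 within 3xTg, with replicate 1 lowest.

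Mmp25, a lipid-anchored MMP known from neutrophils, had the largest point estimate of the 37 genes and few reads. It was in the set only through its NTG level, so that this rank is not independent of the choice of genes. Its reads numbered 37, 14 and 14 in NTG and 7, 9 and 14 in the deeper 3xTg libraries, which are normalized counts of 43.3, 19.6 and 20.7 against 6.60, 5.06 and 10.4. The groups did not overlap, and NTG replicate 1 was above the rest. The log2 fold change on the log2(value + 1) scale was -1.75 (SE 0.45, limma adjusted p = 0.0713), which did not pass. By DESeq2 it was -1.95 and passed with an adjusted p of 0.024. By limma with sample weights, where 7.54% of all genes were called lower, it passed with an adjusted p of 0.0137, and over 19 alternatives the adjusted p ranged from 0.0137 to 0.271.

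Mmp2, gelatinase A, is the activation target of Mmp14. Normalized counts were 639, 785 and 365 in NTG and 334, 421 and 406 in 3xTg. NTG replicate 3 lay among the 3xTg values. The log2 fold change was -0.56 (SE 0.25, limma adjusted p = 0.219) with all libraries and -0.88 (limma adjusted p = 0.0298) without NTG replicate 3, a fit in which 1.17% of all genes were called lower. Sample weights, under which Mmp2 and Adamts5 joined the calls, gave Mmp2 an adjusted p of 0.0192 by limma, and over 20 alternatives it ranged from 0.0192 to 0.601. Of the secreted MMPs, Mmp11 (stromelysin-3) was at -0.18, Mmp19 at 0.23 and Mmp28 (epilysin) at -0.51, none of which passed. With the GC trend removed, Mmp11, Mmp19 and Mmp28 stood at 0.02, 0.23 and -0.24.

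Of the 23 MMP symbols, 12 were under the minimum. Mmp1a, Mmp1b, Mmp7, Mmp10, Mmp20 and Mmp27 had 0 reads in every library. A count of 0 allows up to 3 reads, which is a normalized count of 1.69 to 4.44 according to the library, for counting error only. Mmp3, Mmp8, Mmp12 and Mmp13 had 2, 4, 5 and 2 reads in all 6 libraries together. Mmp9, gelatinase B, had 23 reads, with a mean normalized count of 3.44, and was not tested. Mmp21 (49 reads), Adamts13 (35 reads) and Adamts14 (49 reads) completed the 14 genes below the minimum.

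The 4 inhibitors did not pass the test. Timp2, which inhibits MMPs and also takes part in the activation of pro-MMP2, had normalized counts of 14162, 14404 and 13665 in NTG and 15235, 15394 and 14265 in 3xTg. The groups overlapped, and the log2 fold change was 0.09 (95% interval -0.13 to 0.30). Timp3, the matrix-bound inhibitor that also blocks ADAMTS4 and ADAMTS5, had normalized counts of 23560.1, 19631 and 20039 in NTG and 20119, 19124 and 17409 in 3xTg, with a log2 fold change of -0.16 (95% interval -0.42 to 0.10).

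Timp4, a TIMP known for its expression in brain and heart, had normalized counts of 22557, 18453 and 21279 in NTG and 19685, 17341 and 15992 in 3xTg. These overlapped in NTG replicate 2 alone, which lay below 3xTg replicate 1, and the log2 fold change was -0.23 (95% interval -0.51 to 0.04). Timp1, the inducible TIMP, was scarce at 22.2, 21 and 22.2 in NTG and 21.7, 14.1 and 20.1 in 3xTg, with an interval of -1.0 to 0.51 around -0.24. For the 3 abundant TIMPs the intervals thus left room for changes of at most 0.51 in size on the log2 scale, whereas for Timp1 they were wide.

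**Figure D3:**
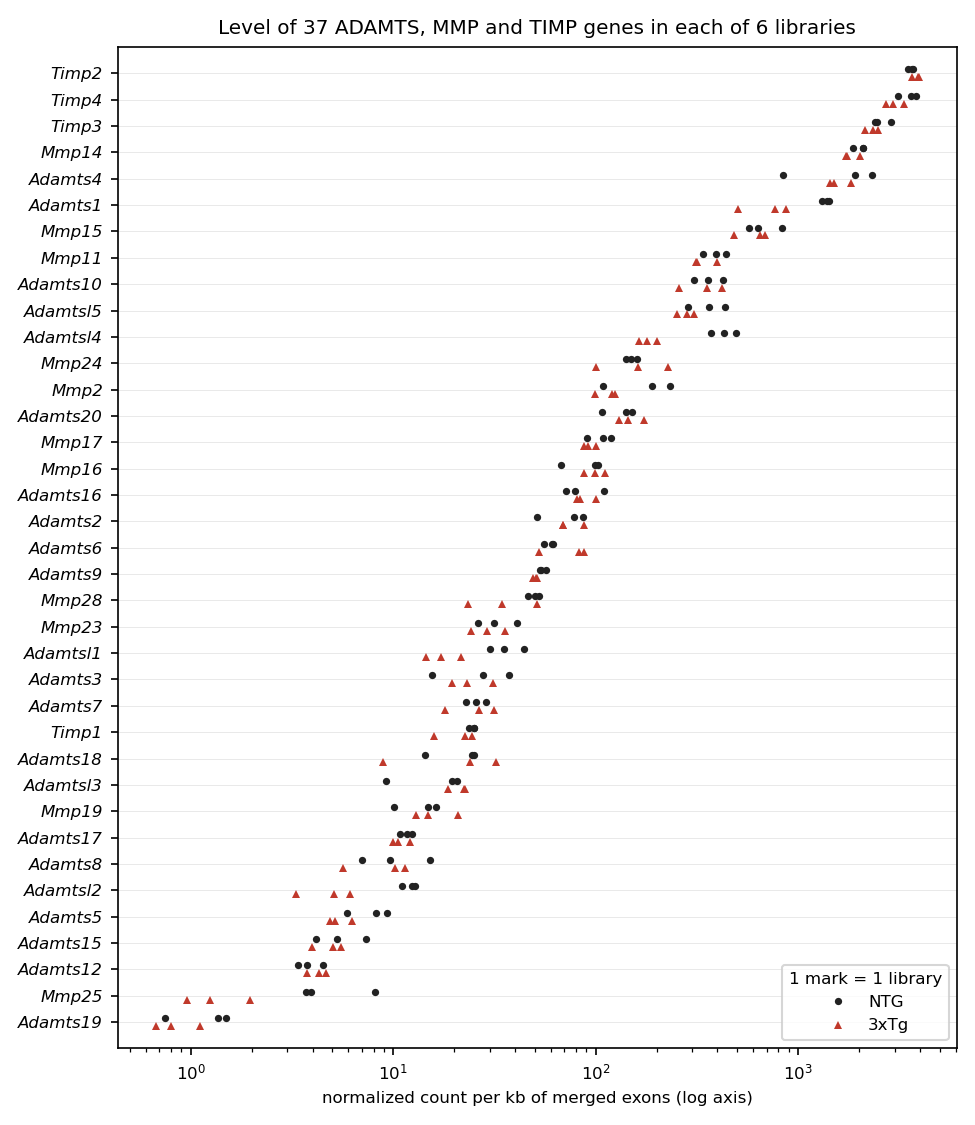
Normalized count per kb of merged exons (log axis) of the 37 genes, ordered by their mean, with 1 mark per library (circles NTG, triangles 3xTg). Timp2, Timp4 and Timp3 lead at 3727, 3261 and 2453 on average, and Adamts19 is last at 1.03.

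Levels of different genes were compared as normalized counts per kb of merged exons. Timp2 stood at 3613 ± 96.8 in NTG and 3841 ± 157 in 3xTg (SD, n = 3 each), and Timp4 at 3523 ± 356 and 2998 ± 317. In NTG these differed by less than their spread, while in 3xTg Timp2 was higher in each library. Timp3 followed at 2588 ± 265 and 2319 ± 168, and Mmp14 at 2021 ± 130 and 1830 ± 162.

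Adamts4 (1695 ± 763 in NTG, 1595 ± 207 in 3xTg) and Adamts1 (1373 ± 55.3 and 715 ± 189) were next, and no other gene exceeded 1000 on average. The order of the pair was within the spread of Adamts4 in NTG, whereas in 3xTg every Adamts4 value exceeded every Adamts1 value. Adamtsl4 was 11th at 431 ± 61.1 in NTG and 182 ± 18.8 in 3xTg. In all, 6 genes exceeded 1000, 24 lay between 10 and 1000, and 7 lay below 10, among them Adamtsl2 and Mmp25.

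The kit does not mark strand, so that reads in bases shared with a gene on the other strand cannot be told apart. Exon bases were shared by 10 of the 37 genes and by 0 of the 4 called lower. Timp3 shared 21.3% of its exon bases with Syn3, but Syn3 was far less abundant, with a mean normalized count of 235. Mmp19 shared 22.3% with Tmem198b, which at 4193 was far more abundant than Mmp19, and Mmp24 shared 13.6% with BC029722 at 757. The levels of Mmp19 and Mmp24 are therefore uncertain. Mmp11 shared 5.58% with Chchd10, which at 6544 was also more abundant than Mmp11.

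Most markers of vascular cells were lower in 3xTg as well. An unadjusted limma p under 0.05 on the lower side was found for 19 of 20 endothelial and 10 of 12 pericyte markers. It was found for 5 of 10 fibroblast markers and for 2125 of all 18664 genes tested. The 3xTg libraries all lay below the NTG libraries for 14 endothelial, 8 pericyte and 4 fibroblast markers, beside 12.6% of all genes tested. Of 20 endothelial markers 4 were called lower by limma (Tie1, Eng, Cldn5 and Esam), 2 by edgeR and 13 by DESeq2, and none higher, with a median log2 fold change of -0.78. Of 12 tested pericyte and smooth muscle markers 3 were lower by limma (Mylk, Rgs5 and Higd1b), 2 by edgeR and 4 by DESeq2, with a median of -1.20, and their summed count was 36904 to 46456 in NTG and 20031 to 34470 in 3xTg. Of 10 tested fibroblast and meningeal markers 1 was lower by limma (Mgp), 0 by edgeR and 4 by DESeq2, with a median of -0.61 and a summed count of 42281 to 52149 in NTG and 24104 to 33055 in 3xTg. No marker of these lists was at 0 in every library.

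The libraries did not stand in the same order for these markers and for all 4 genes. Within 3xTg, the endothelial markers were highest in replicate 1, at 0.03 on the centred log2 scale, and at -0.74 and -0.57 in replicates 2 and 3, and the pericyte markers at 0.21, -0.90 and -1.01. Adamtsl1 and Adamtsl2 had the same highest library, replicate 1, at -0.22 and -0.29. Adamtsl4 and Adamts1 were lowest in replicate 1, at -0.76 and -0.95, where the vascular markers were highest. Without 3xTg replicate 1, 15 endothelial, 11 pericyte and 5 fibroblast markers were called lower, and so were all 4 genes, where 5.74% of all genes were. The part of these cells in the result was not tested.

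**Figure D4:**
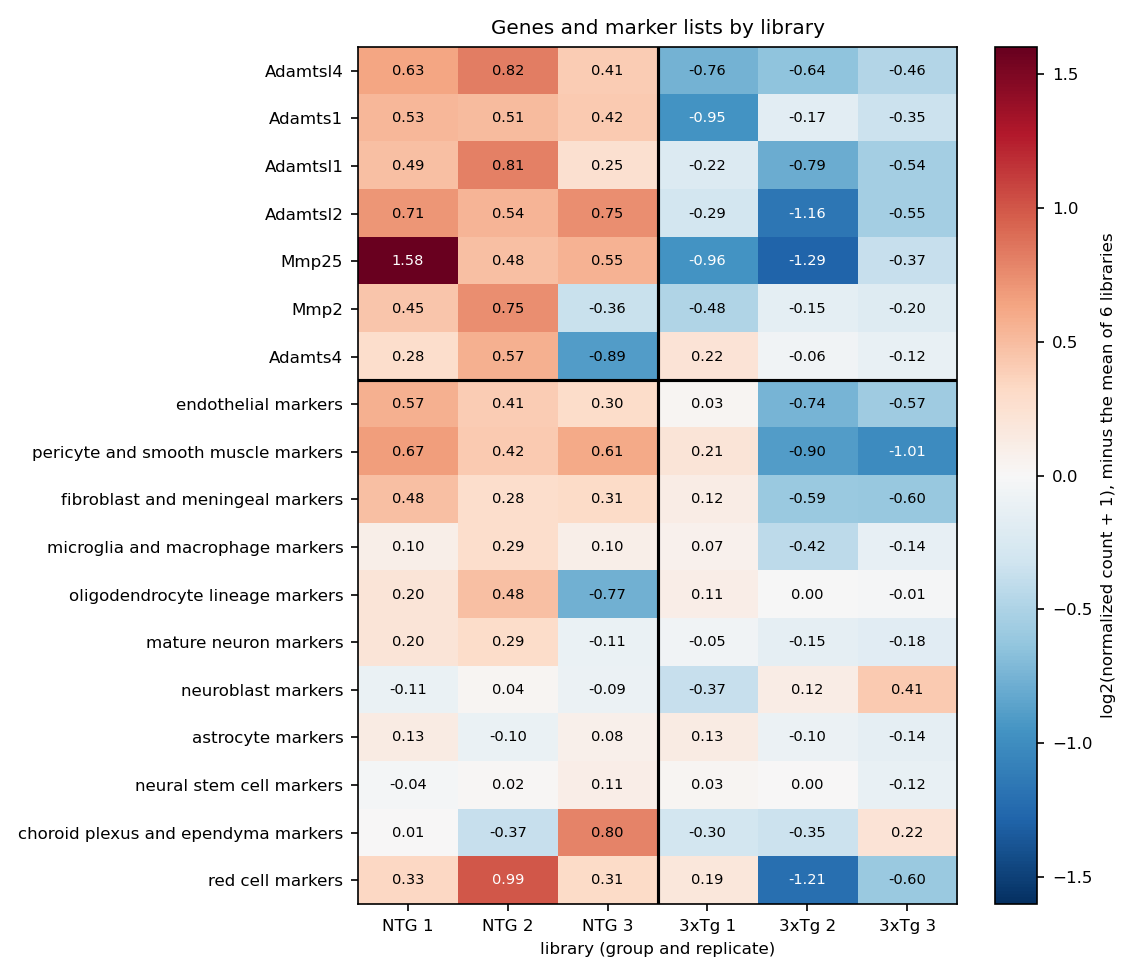
Level of 7 genes and mean level of 11 marker lists in each library, as log2(normalized count + 1) minus the mean of the 6 libraries. Adamtsl4 and Adamts1 are lowest in 3xTg replicate 1 (-0.76 and -0.95), where endothelial and pericyte markers are at 0.03 and 0.21.

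By limma, of the microglia and macrophage markers 1 of 14 was lower (P2ry12), of the oligodendrocyte lineage 1 of 14 (Cspg4) and of mature neurons 1 of 15 (Gria1). Cspg4 is also on the list of substrates and matrix partners below, so that the same result is counted in both lists. Pdgfra is on both the oligodendrocyte lineage and the fibroblast list. No neuroblast, astrocyte, neural stem cell, choroid plexus or red cell marker was called by limma with all libraries. DESeq2 called 1 choroid plexus marker higher and 1 red cell marker lower. Without 3xTg replicate 1, limma called 4 red cell markers and 1 neural stem cell marker lower and 3 neuroblast markers higher. In that fit 5.74% of all genes were called lower and 5.14% higher. With all libraries, the 5 red cell markers each had an unadjusted limma p under 0.05 on the lower side, with a median log2 fold change of -1.07. Such a p was found for 2125 of all 18664 genes tested.

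Genes that act with these proteases were examined as lists of substrates and matrix partners, of other metalloproteinases, and of other inhibitors and activators. Of 35 substrates and partners tested 2 were lower and 0 higher, with a median log2 fold change of -0.32. The counts were 2 lower and 0 higher by edgeR and 6 lower and 1 higher by DESeq2, which called 3.93% of all genes lower and 3.24% higher. The limma calls were Ltbp4, a latent TGF-beta binding protein of elastic and microfibril matrix (3043 ± 151 in NTG, 1966 ± 349 in 3xTg, log2 fold change -0.64, limma adjusted p = 0.0374), and Cspg4, the NG2 proteoglycan (6689 ± 1948 and 3584 ± 488, -0.87, limma adjusted p = 0.0485). Neither was called with the GC trend removed, and 8 of the list were lower without 3xTg replicate 1, where 5.74% of all genes were. An unadjusted limma p under 0.05 was found for 14 of the 35 on the lower side and 2 on the higher. Of all 18664 genes tested, 2125 and 2253 had such a p. The 3xTg libraries all lay below NTG for 9 of the 35 (25.7%, beside 12.6% of all genes) and above for 1 (beside 15.1% of all genes).

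Of 17 other metalloproteinases tested 1 was higher, Adam23, which encodes a membrane ADAM without protease activity that binds LGI1 at synapses (810 ± 207 in NTG, 2221 ± 182 in 3xTg, log2 fold change 1.48, limma adjusted p = 0.0016). None was lower with all libraries, and 1 was lower by limma without 3xTg replicate 1, where 5.74% of all genes were. The median of the list was 0.17 by limma and -0.06 by edgeR.

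Of 19 other inhibitors and activators tested 2 were lower and 1 higher, with a median log2 fold change of -0.20. A2m, the inhibitor alpha-2-macroglobulin, which traps proteases of many classes, fell from 1484 ± 81.4 to 653 ± 29.6 (log2 fold change -1.18, limma adjusted p = 0.00057). Pcsk6, a proprotein convertase of the furin family, which removes the propeptides of several secreted proteins, fell from 11819 ± 255 to 7677 ± 291 (log2 fold change -0.62, limma adjusted p = 0.0076). B3glct, the glucosyltransferase that extends O-fucose on thrombospondin repeats, rose from 1717 ± 105 to 2558 ± 324 (log2 fold change 0.57, limma adjusted p = 0.0393). With the GC trend removed 1 of the list was lower and 0 higher. Without 3xTg replicate 1 the limma counts were 6 and 0, in a fit that called 5.74% of all genes lower and 5.14% higher.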

How the data were processed

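The deposited signal values were counts that the authors normalized with DESeq2, after alignment with HISAT2 to GRCm38 (mm10) and assignment with featureCounts, with tool versions not given in the sources used here. Deposited fold changes, p-values and weights of the authors' own comparison were not used. All values were whole reads times 1 factor per library, within 0.01. Tests covered the 18664 genes whose mean was 10 or more, with limma 3.58.1 with a trend on log2(normalized count + 1), with Benjamini-Hochberg adjustment (R 4.3.3). The fold threshold of 0.5 and the adjusted p threshold of 0.05 were those of the study. Both edgeR 4.0.16 and DESeq2 1.42.0 were run on the recovered reads. Length, GC content and overlaps came from GENCODE M21, which held 55230 of the 55471 genes and lacked 241. The limma, edgeR and DESeq2 fits were tested on simulated counts with changes of known size. Of 100 genes changed by 1 on the log2 scale, limma found 68%, edgeR 68% and DESeq2 76%. Of all their calls, 5.42%, 7.69% and 19.1% were false, where 100 of 18664 genes were changed by 1 and 100 by 2. The simulated counts had no GC trend and the same spread of a gene in every library. These shares therefore hold for the simulation and do not give the false share of the real calls.

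The genes and lists were chosen with earlier results of these data known. Values in every library are given for genes called in any of limma, edgeR, DESeq2 or limma without 1 library, for those beyond 0.5 without overlap, for the 5 highest per length and for the TIMPs. Adamts9, Adamtsl3, Adamtsl5, Adamts5, Adamts18 and Mmp24 were described further after their values were seen. Protein motifs were searched in translated GENCODE coding sequences in place of RefSeq proteins, and the motif without the glycine was added after the first result. Deviations of libraries with the same replicate number correlated at 0.063, 0.2 and 0.038, so that the numbers were not shown to pair the samples. Summaries and plots used matplotlib 3.10.9, pandas 2.3.3 and numpy 2.4.6 under Python 3.11.15. An allele of the 3xTg line and 1 overlapping gene are not reported here.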

Additional observations from a re-analysis of the deposited data

How the results depend on the processing

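Of 258 values of 13 named genes under 20 alternatives, 229 kept their direction and side of the threshold, 16 lost the call, 5 gained one and 8 changed sign. The count of the 37 genes called lower, 4 with all libraries, was 7 with sample weights and 1 to 4 when a library was left out. The count called higher, 0 with all libraries, was 0 to 1 when a library was left out and 1 with the GC trend removed without 3xTg replicate 1 (Mmp24), a setting chosen after the data were seen. A replicate block left 4 lower and 0 higher, while over all genes the counts rose from 210 higher and 312 lower to 302 and 450. NTG replicates 1 and 2 correlated best with the 3xTg library of their own number, and NTG replicate 3 did not. The sign of Adamts4 turned with DESeq2 (-0.10), edgeR (-0.089), sample weights (-0.31), and without 3xTg replicate 1 (-0.08) or NTG replicate 3 (-0.41), and its log2 fold change lay between -0.41 and 0.32 over the libraries left out. That of Mmp14 turned with the GC trend removed, alone (0.070), together with the replicate block (0.070), and together with leaving out 3xTg replicate 1 (0.057). Genes outside these 13, such as Mmp15 (0.11) and Mmp17 (0.03), also changed sign with the GC trend removed. The cause was not tested. Over all genes, DESeq2 gave 604 higher and 733 lower, sample weights 1196 and 1408, and leaving out a library 49 to 959 higher and 106 to 1071 lower, the most without 3xTg replicate 1. No replicate left out moved the median of the 37 genes beyond -0.21 to -0.10. Counts were limited for Mmp25, with 7 to 37 reads per library, and for Timp1. Adamtsl2 also missed the threshold with no filter on low values (limma adjusted p = 0.0561), with reads thinned to the shallowest library (0.0501) and with the GC trend removed together with the block (0.0643).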
